A study of Rattus norvegicus with 8 samples.

Results

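Blood clotting and complement are cascades of plasma proteases that are held back by regulators on cell surfaces and in plasma. Tissue factor (F3) starts the extrinsic clotting pathway, thrombin is made from prothrombin (F2) and turns fibrinogen into fibrin, and plasmin, formed by tissue plasminogen activator (Plat), dissolves fibrin again. Tfpi blocks tissue factor, Thbd redirects thrombin towards activating protein C, Serpina10 inhibits factor Xa together with protein Z, and on cell membranes Cd55 breaks up the complement convertases while Cd59 stops the membrane attack complex. Most of the plasma factors are made by the liver, whereas tissue factor, Thbd, Tfpi, Plat, Cd55 and Cd59 are also made by cells of the gut wall and its vessels.

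The genes described here are Serpina10, F2, F3, F5, Tfpi, Thbd, Plat, Cd55 and Cd59, a list of 9 regulators or factors of coagulation and complement chosen by name. A probe was matched to 8 of them, and F5, the cofactor of factor Xa, had no matched probe. Cd59 was matched through the gene that now carries the symbol Cd59b. All 8 passed the filter on dim probes, among 19899 genes tested. Signals were measured in 16 female Wistar rats aged 6 weeks, in a piece from the middle of the colon taken after 3 weeks of diet. Of the 4 groups of 4 rats, REF received the standard AIN-93 M diet and C10 a diet with 10 % cocoa. CF received cocoa fiber in the fiber proportion of C10 with very few polyphenols, and I received inulin as its soluble fiber. The experimental diets were made from the AIN-93 M formula, with the macronutrients and insoluble fiber supplied by the cocoa or cocoa fiber taken out. The piece was homogenized with no stated separation of layers, so a signal sums over whatever epithelium, immune cells, vessels and muscle it held.

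Each array took 2 rats, 1 per dye, and every diet had 2 rats in each dye. Between 68.6 and 83.9 % of the spots of a rat were well above background. C10 rat 1 stood apart: the mean log2 signal of 7 smooth muscle genes was 12.21 in it and 13.80 to 14.87 in the other 15 rats. What leaving it out did is given beside the F3, Thbd, Cd59b and Vtn values. Below, log2 signal is the normalized log2 intensity of a probe, which has no meaning across probes, and a log2 fold change is the fitted difference between diets, corrected for dye and for the rats that shared an array. A gene was called at a limma p below 0.05 after Benjamini-Hochberg adjustment over all genes. The exact permutation p of a single gene, two-sided and over 4 rats against 4, cannot be smaller than 0.0286. All comparisons with REF share its 4 rats.

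F2 and Cd55 are the pair of members whose signals ran together most closely, as described further on, and their upstream sequences are shown for this reason. These are the 250 bases before an annotated start in RefSeq (GRCr8), F2 at chr3:98065247-98065496 and Cd55 at chr13:44438102-44438351, both on the minus strand. The F2 window directly adjoins the annotated gene, which ends at 98065246. The Cd55 window lies inside the annotated gene, which reaches to 44438913, so the windows are not alike in position. Capitals mark matches on either strand to the motifs searched.
F2: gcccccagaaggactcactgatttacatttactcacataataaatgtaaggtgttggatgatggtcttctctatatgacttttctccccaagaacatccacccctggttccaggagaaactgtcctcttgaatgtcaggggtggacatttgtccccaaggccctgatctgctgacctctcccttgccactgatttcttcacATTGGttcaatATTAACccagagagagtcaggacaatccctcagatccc
Cd55: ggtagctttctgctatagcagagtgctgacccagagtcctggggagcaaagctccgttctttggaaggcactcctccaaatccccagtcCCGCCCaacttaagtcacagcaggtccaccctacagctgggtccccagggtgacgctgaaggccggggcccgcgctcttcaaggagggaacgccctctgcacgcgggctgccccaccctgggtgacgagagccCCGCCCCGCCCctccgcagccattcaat
The motifs searched were the TATA box (TATAAA), the GC box (GGGCGG), the CCAAT box (CCAAT), an AP-1 site (TGAGTCA) and a part of the HNF1 site (GTTAAT). F2 had a CCAAT box 49 bases and the HNF1 letters 38 bases before the start, where 34 % and 6.45 % of 33469 rat promoters of the same length held one. Cd55 had 3 GC boxes, at 161, 28 and 23 bases, of which the last 2 overlap by 1 base, and 30.5 % of the promoters held at least 1. The F2 window held no GC box, the Cd55 window no CCAAT box and no HNF1 letters, and neither held a TATA box or an AP-1 site. The GC content was 46.8 % for F2 and 64.4 % for Cd55, compared with a median of 51.2 % over all promoters. The table of promoters had no entry for F3, Serpina10, Thbd, Plat and Cd59b.

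In the C10 group, limma called 1 of the 8 members, F3, which was lower than in REF, and 0.613 % of all genes tested were called lower. At an unadjusted p below 0.05, F3, F2 and Cd55 were lower and Tfpi was higher, where 8.42 % and 8.71 % of all genes were lower and higher. The median log2 fold change of the 8 members was -0.55 in C10, with 6 of the 8 below zero, compared with a median of 0.01 over all genes. In CF and in I, limma called 0 of the 8 members and 0 % of all genes. At an unadjusted p below 0.05, CF had 2 members lower (F3 and Serpina10, with 3.23 % of all genes lower), and I had the same 2 lower (2.77 %) and Plat higher (2.94 %). The medians of the members were -0.11 in CF and 0.03 in I. Rank product, the kind of test used by the study, was computed here over all pairs of rats of 2 diets. At a percentage of false positives below 0.05 it took F2, F3, Cd55 and Serpina10 as lower in C10 (1.01 % of all genes). It took Serpina10 alone as lower in CF (0.422 %) and in I (0.216 %). The paper also lists F2 and Cd55 as lower in C10, and Serpina10 as lower in CF and in I. By PCR it reports a significant decrease of Serpina10 in CF. For Serpina10 in C10, by contrast, the paper gives a log2 fold change above zero.

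**Figure D1:**
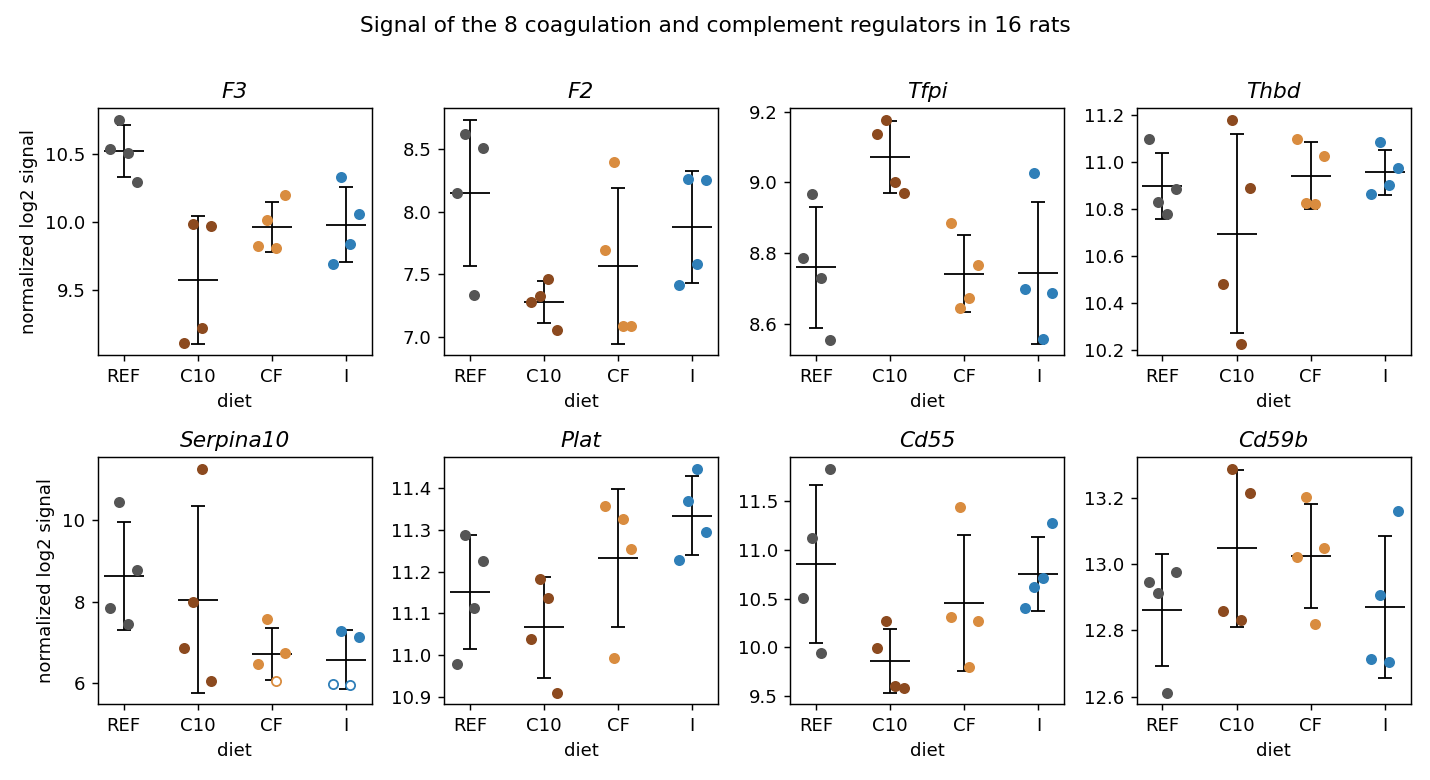
Normalized log2 signal of the 8 members (vertical axes, a scale of its own for each gene) by diet, with 1 point per rat, in the order of rat 1 to 4 within a diet. Black bars are the mean ± SD of 4 rats and open points are signals not well above background. All 4 REF rats lie above all 4 C10 and all 4 CF rats for F3, while the Serpina10 signals spread from 5.93 to 11.28.

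F3 encodes tissue factor, the membrane receptor of factor VIIa with which clotting begins. Its log2 signal was 10.53, 10.75, 10.51 and 10.29 in REF rats 1 to 4 and 9.12, 9.98, 9.23 and 9.97 in C10 rats 1 to 4. It was 9.83, 10.01, 9.81 and 10.20 in CF and 9.70, 10.33, 9.84 and 10.06 in I. The lowest REF rat was above every C10 and every CF rat, and only 1 I rat, rat 2, reached the REF range. Groups that did not overlap in this direction were found for 2.03 % of all genes in C10 and 0.784 % in CF. The fitted log2 fold change was -0.97 (SE 0.16) in C10, 1.96-fold lower, with a limma adjusted p of 0.0151 and an exact permutation p of 0.0286. In rank by p-value F3 stood at place 45 of the 19899 genes. In CF the log2 fold change was -0.58 (SE 0.18, limma adjusted p 0.684, exact permutation p 0.0286) and in I it was -0.53 (SE 0.16, adjusted p 0.792, exact permutation p 0.0571). The order of the group means was therefore REF, I, CF and C10, and CF differed from I by -0.05 (SE 0.16). No pair of the 3 experimental diets passed the adjusted threshold for F3. Between C10 and CF the log2 fold change of F3 was -0.39 (SE 0.16, adjusted p 0.311), and between C10 and I -0.44 (SE 0.18, adjusted p 0.334). With 1 rat left out, these ranged from -0.61 (without C10 rat 4) to -0.23 (without C10 rat 3) against CF and from -0.62 (without C10 rat 4) to -0.29 (without C10 rat 1) against I.

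The F3 call in C10 was close to the threshold. Without C10 rat 1, the rat with little smooth muscle signal, the log2 fold change was -0.80 and the limma adjusted p 0.0504. Leaving out REF rat 1 gave an adjusted p of 0.0634 and leaving out REF rat 2 gave 0.104, and the call was also lost when the array was left out as a block (0.083) or when only the log ratios within arrays were fitted (0.19). With any 1 rat left out, the log2 fold change lay between -1.11 and -0.80. C10 rats 1 and 3 had the lowest F3 signals of all rats, and their mean log2 signals of 6 fibroblast genes, 12.95 and 12.64, were also the lowest, the other 14 rats lying between 13.26 and 14.0. In the C10 group 9 of 12 mast cell genes were called lower, where 0.613 % of all genes were. The summed signal of the 12 was 2803 to 6408 in C10 and 10572 to 17099 in REF. Their part in the F3 result was not tested. Fewer cells of a type and less RNA per cell cannot be told apart in a piece of whole colon.

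F2 encodes prothrombin, a secreted zymogen best known from liver. REF rats 1 to 4 had log2 signals of 8.15, 8.62, 7.33 and 8.51, and C10 rats 7.28, 7.32, 7.46 and 7.06. In CF it was 7.70, 8.40, 7.09 and 7.09, and in I 7.41, 8.27, 7.58 and 8.26. The C10 rats lay close together, with an SD of 0.17, while each other diet held both low and high rats and had an SD of 0.45 to 0.63. REF rat 3 fell within the C10 range. Against REF the log2 fold change in C10 was -1.01 (SE 0.27, limma adjusted p 0.0894, exact permutation p 0.0571), in CF -0.56 (SE 0.30, adjusted p 0.811) and in I -0.11 (SE 0.27, adjusted p 0.975). The value in CF was -0.86 when CF rat 2 was left out and -0.36 when CF rat 4 was, the lowest and highest with 1 rat less. F2 passed the threshold in C10 when REF rat 3 was left out (-1.23) and when the row of the slide was added as a term (-1.22, limma adjusted p 0.0426). Its limma adjusted p ranged up to 0.372 in other fits. All 16 rats had a signal well above background.

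Cd55, or decay-accelerating factor, is anchored in the membranes of epithelial and blood cells. In REF the log2 signals were 10.51, 11.13, 9.94 and 11.83, and in C10 they were 9.995, 10.27, 9.60 and 9.59. It was 10.31, 11.44, 9.80 and 10.27 in CF and 10.40, 10.62, 10.71 and 11.28 in I. The C10 values were again the least spread, and REF held the highest rat of all. Only I lay wholly above C10, which in this direction holds for 2.47 % of all genes. The log2 fold change in C10 was -0.97 (SE 0.33, limma adjusted p 0.159, exact permutation p 0.0857) against REF and -1.05 (SE 0.36, adjusted p 0.248, exact permutation p 0.0286) against I. Against CF it was -0.78 (SE 0.33, adjusted p 0.319), and -0.29 without CF rat 2 or -0.48 without C10 rat 4. In CF and I, Cd55 differed from REF by -0.19 (SE 0.36) and 0.09 (SE 0.33). A second, dimmer probe of Cd55 gave a log2 fold change of -0.47 (SE 0.23, adjusted p 0.33) in C10, in the same direction and smaller. C10 rats lay in one row of the slide and I rats in the other, so for this pair of diets the row and the diet can be told apart only through REF and CF.

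Over the 16 rats the dye-adjusted log2 signals of F2 and Cd55 had a Pearson r of 0.88 and a Spearman rho of 0.87. This was the highest r of the 28 pairs of members, was picked for that and carries no test, and the next pair, F3 and Thbd, had 0.61. Without the 2 rats farthest from the Cd55 median (CF rat 2 and REF rat 4) r was 0.83, and for deviations from the diet means it was also 0.83. The rats share their arrays in pairs, and r includes whatever a rat's tissue piece held. The 3 genes most like Cd55 over the rats were Tph1 (r = 0.95), which makes serotonin in gut, Chga (r = 0.94), a protein of secretory granules, and Cmpk2 (r = 0.94). The 3 most like F2 were Efhc2, Slc35g2 and Cryba2, each with r = 0.95. Chga is 1 of 7 tested enteroendocrine markers, and its log2 fold change in C10 was -0.98 (SE 0.36, limma adjusted p 0.187). The mean log2 signal of the 7 markers was 10.54 to 10.96 in C10 and 10.34 to 11.25 in REF, with 0 of the 7 called and a median log2 fold change of 0.02. A list of 5 posterior Hox genes, markers of position along the colon, was looked at after the values were seen. Its summed signal was 2910 to 10767 in REF rats 1, 2 and 4, CF rat 2 and I rats 2 and 4. These rats had the highest F2 signals. In the other rats, with all C10 rats among them, the summed signal was 12736 to 33574. For Cd55 these sets of rats overlapped, with I rat 3 at 10.71 above REF rat 1 at 10.51. The part of either marker list, and of the position of the piece, in the F2 and Cd55 values was not tested.

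**Figure D2:**
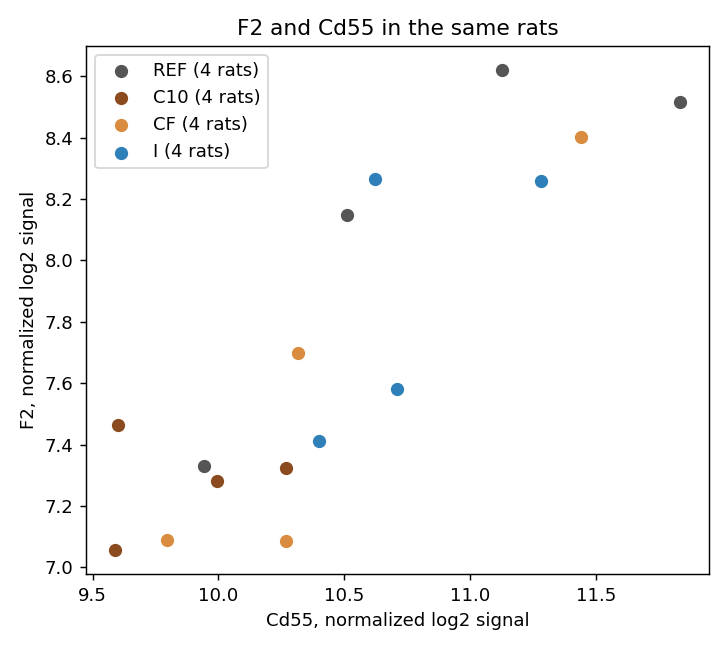
Normalized log2 signal of F2 (vertical axis) against that of Cd55 (horizontal axis), 1 point per rat, coloured by diet. Rats high in one gene were high in the other, and the 4 C10 rats lie together at the low end, beside REF rat 3 and CF rats 3 and 4.

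Cd59b, whose protein keeps C9 from forming a pore, showed little change. Its log2 signal had means of 12.86 ± 0.17 in REF, 13.05 ± 0.24 in C10, 13.02 ± 0.16 in CF and 12.87 ± 0.21 in I (SD, n = 4). All groups overlapped, and the 95 % interval of the log2 fold change against REF was -0.06 to 0.41 in C10, -0.05 to 0.45 in CF and -0.17 to 0.29 in I. In C10 the log2 fold change was 0.17, and with 1 rat left out it ranged from 0.070 (without C10 rat 2) to 0.25 (without C10 rat 1). A change of the size fitted for Cd55 in C10 lies outside these intervals.

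Serpina10, the protein Z-dependent protease inhibitor, varied more among rats of a diet than nearly any other gene. Its log2 signal was 7.85, 10.45, 7.45 and 8.78 in REF and 6.86, 8.0, 11.28 and 6.04 in C10. It was 6.47, 7.57, 6.05 and 6.73 in CF and 5.97, 7.27, 5.93 and 7.12 in I. The signals of CF rat 3 and of I rats 1 and 3 were not well above background, so that 3 of 4 CF rats and 2 of 4 I rats measured the gene. C10 held both the highest value of all rats and one of the lowest. The SD within diets was 1.54, at the 99.8th percentile of all genes, where the median gene had 0.16. Against REF, the log2 fold change was -2.21 (SE 0.88, limma adjusted p 0.776, exact permutation p 0.0571) in CF and -2.03 (SE 0.81, adjusted p 0.858, exact permutation p 0.0286) in I. All 4 I rats were below all 4 REF rats, as for 0.93 % of all genes. In C10 it was -0.90 (SE 0.81, adjusted p 0.621), with a 95 % interval from -2.65 to 0.84.

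The size of the Serpina10 values, and in the C10 comparisons also their sign, depended on single rats. With any 1 rat left out, the log2 fold change against REF stayed below zero in CF (-2.77 to -1.38) and in I (-2.71 to -1.38). Without REF rat 2 the log2 fold change was -1.38 in CF, -1.38 in I and 0.09 in C10. Without C10 rat 3 it was -1.82 in C10, and C10 then differed from CF by -0.10 in place of 1.30 and from I by -0.04 in place of 1.12. With the scanner software's processed signals, used without the normexp correction and its offset, the difference was -3.54 in CF and -3.86 in I. The genes most like Serpina10 over the 16 rats were Triqk (r = 0.91), the amino acid transporter Slc38a4 (r = 0.89) and Serpina1 (r = 0.88), which encodes alpha-1-antitrypsin. Of 8 liver genes, Alb, Apoh, Hpx and Fetub did not pass the filter on dim probes. The mean log2 signal of the 4 that did, Serpina1 among them, was 6.21 to 6.54. It was highest in C10 rat 3 (6.54) and REF rat 2 (6.43), the rats with the highest Serpina10 signals, and at most 6.34 in the others. In C10 rat 3 only 1 of these 4 genes was well above background, and in REF rat 2 all 4 were. Their part in the Serpina10 values was not tested. The lowest log2 signal well above background was 5.82 to 6.27, depending on the rat.

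Tfpi encodes the inhibitor of the complex of tissue factor and factor VIIa. The C10 rats had log2 signals of 9.14, 9.18, 9.0 and 8.97 and the REF rats of 8.79, 8.97, 8.73 and 8.55. It was 8.89, 8.65, 8.67 and 8.77 in CF and 8.70, 9.03, 8.56 and 8.69 in I. Every C10 rat was above every REF and every CF rat, in the case of the closest REF rat by a small margin, and I rat 2 reached the C10 range. In this direction 2.54 % of all genes did not overlap between C10 and REF, and 1.58 % between C10 and CF. The log2 fold change of Tfpi in C10 was 0.27 (SE 0.09, limma adjusted p 0.151) against REF and 0.31 (SE 0.09, adjusted p 0.161) against CF, each with an exact permutation p of 0.0286. Against REF it was -0.03 (SE 0.10) in CF and 0.01 (SE 0.09) in I. A second probe of Tfpi, well above background in 8 of 16 rats, gave -0.06 (SE 0.07) in C10, so the probes disagreed in sign, and the mean of both probes gave 0.11.

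Thbd encodes thrombomodulin, a receptor of thrombin on endothelium. Its mean log2 signal was 10.90 ± 0.14 in REF, 10.94 ± 0.14 in CF and 10.96 ± 0.10 in I (SD, n = 4), and the SD in C10 was 0.42. In C10, rats 1 and 3 were at 10.48 and 10.23, lower than any rat of the other diets, while rats 2 and 4 were at 11.18 and 10.89. The log2 fold change in C10 was -0.20 (SE 0.16, limma adjusted p 0.586), and with 1 rat left out it ranged from -0.44 (without C10 rat 2) to -0.039 (without C10 rat 3), with -0.06 without C10 rat 1 and -0.052 without REF rat 1. In CF and I it was 0.09 (SE 0.17) and 0.10 (SE 0.16). A second, dim probe gave -0.13 (SE 0.09) in C10. The 8 endothelial genes tested had a mean log2 signal of 8.56 to 8.75 in C10 and 8.55 to 8.68 in REF, and 0 of them was called.

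Plat encodes tissue plasminogen activator and was the least spread of the members, with an SD within diets of 0.13. Log2 signals were 11.23, 11.37, 11.45 and 11.29 in I and 10.98, 11.29, 11.11 and 11.23 in REF. It was 11.04, 11.18, 11.14 and 10.91 in C10, and 11.36, 10.99, 11.33 and 11.25 in CF. The I rats were above all C10 rats, as for 2.47 % of all genes, whereas I and REF overlapped. The log2 fold change of Plat in I was 0.18 (SE 0.08, limma adjusted p 0.866, exact permutation p 0.0571) against REF, and in C10 it was -0.24 (SE 0.09, adjusted p 0.288, exact permutation p 0.0286) against I. Against REF it was -0.05 (SE 0.08) in C10 and 0.11 (SE 0.09) in CF.

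**Figure D3:**
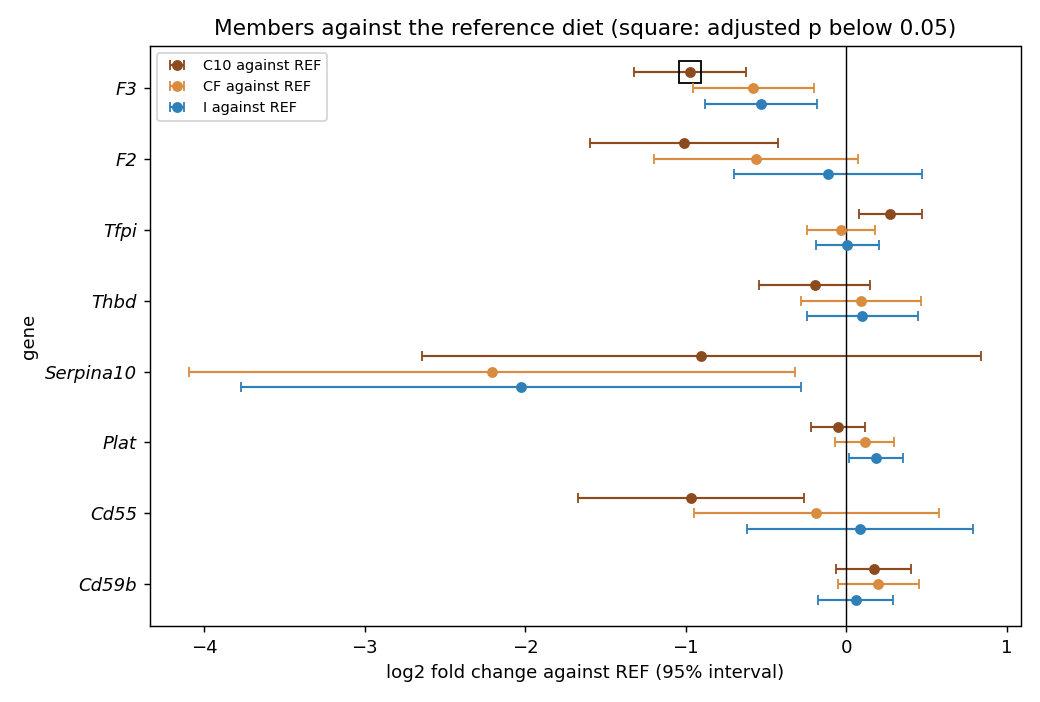
Fitted log2 fold change against REF (horizontal axis) of each member in C10, CF and I, with bars for the 95 % interval of limma's fit. The square marks F3 in C10, the 1 difference of the 24 with an adjusted p below 0.05. Serpina10 has the widest bars.

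When the experimental diets were compared with each other, limma called 0 of the 8 members in C10 against CF, in C10 against I and in CF against I, where it called 0.427 %, 0.563 % and 0 % of all genes. At an unadjusted p below 0.05, C10 differed from CF for 3 members, with Cd55 and F3 lower (7.4 % of all genes lower) and Tfpi higher (6.04 %). C10 differed from I for 5 members, with Cd55, F2, F3 and Plat lower (6 %) and Tfpi higher (6.16 %). Between CF and I, 0 of the 8 members had an unadjusted p below 0.05, compared with 2.82 % of all genes, and apart from Serpina10 (-0.18, SE 0.81) and F2 (-0.45, SE 0.27) their log2 fold changes lay between -0.27 and 0.14. Rank product took 0 members in C10 against CF (0.513 % of all genes) and in CF against I (0.171 %), and in C10 against I it took Cd55 as lower and Serpina10 as higher (1.12 % of all genes in either direction).

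The members are part of larger cascades, and 84 other coagulation and complement genes were listed, of which 53 were tested. In C10 against REF, limma called 1 of the 53 (1.89 %), Vtn, and 16 had an unadjusted p below 0.05, where 0.945 % and 17.1 % of all genes did. Their median log2 fold change was -0.14, with 38 of 53 below zero. Vtn encodes vitronectin, a plasma and matrix protein that binds the forming membrane attack complex. Its log2 signal was 6.96, 7.18, 6.98 and 6.92 in C10 and 7.37, 7.29, 7.34 and 7.64 in REF. The groups did not overlap, as for 2.03 % of all genes in this direction. The log2 fold change of Vtn was -0.37 (SE 0.08, limma adjusted p 0.0448, exact permutation p 0.0286). This call was lost when C10 rat 1, C10 rat 3, REF rat 1, REF rat 2 or REF rat 4 was left out. In CF and in I, 0 of the 53 were called, and 1 and 4 of them had an unadjusted p below 0.05, compared with 6.34 % and 5.71 % of all genes.

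By list, and with the members counted where they belong, 2 of 9 coagulation factors were above zero in C10 and 7 below. F3 led this list, and F13a1, the fibrin-crosslinking subunit of factor XIII, was next to F3 by p-value among the factors with a log2 fold change of -0.58 (SE 0.14, limma adjusted p 0.0672). Of 8 anticoagulants 6 were below zero, and the smallest adjusted p was that of antithrombin, Serpinc1, at 0.59 (SE 0.17, adjusted p 0.109). Its signal was well above background in all 4 C10 rats but in only 1 of 4 REF rats, so the reference lay near the floor. Of 10 fibrinolysis genes 8 were below zero, led by the protease inhibitor Serpine2 at -0.53 (SE 0.14, adjusted p 0.0834). All 4 protease-activated receptors were above zero, with a median of 0.10, and F2r, the main thrombin receptor, was at 0.21 (SE 0.10, adjusted p 0.299). None of these 4 genes, F13a1, Serpinc1, Serpine2 and F2r, passed the threshold.

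Of the 8 lists, the 2 complement pathways had the lowest medians in C10. Of the classical and lectin pathway 9 of 10 genes were below zero, with a median of -0.38 and 0 called, led by Fcna, a ficolin, at -0.35 (SE 0.09, limma adjusted p 0.0902). All 5 genes of the alternative and terminal pathway were below zero, with a median of -0.37 and 0 called. Cfb, the protease subunit of the alternative convertase, had a log2 signal of 8.76 to 10.39 in REF and 7.29 to 8.95 in C10, and a log2 fold change of -1.53 (SE 0.48, adjusted p 0.136). Of the complement regulators 6 of 10 were below zero and 4 above, and of the receptors 3 of 5 were below zero, led by C5ar1 at -0.25 (SE 0.11, adjusted p 0.277). C1q, Fcna and C5ar1 are also made by macrophages, of whose 7 tested markers 6 were below zero in C10. Of the 7, limma called 1 lower, Siglec1 (-0.83, SE 0.10, adjusted p 0.00288), where 0.613 % of all genes were called lower. The mean log2 signal of these 7 markers was 8.09 to 8.84 in C10 and 8.68 to 9.0 in REF. Their summed signal went the other way, with a median of 8110 (6642 to 10502) in C10 and 7422 (7132 to 8878) in REF. The part of macrophages in the complement values was not tested.

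**Figure D4:**
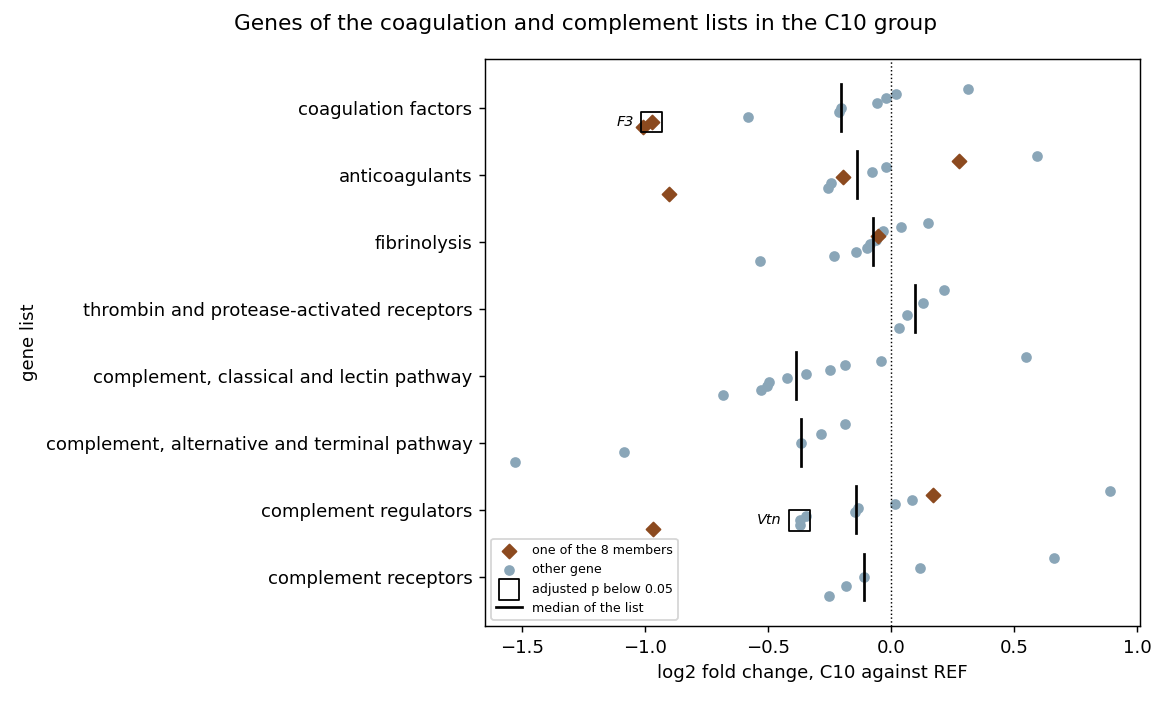
Log2 fold change in C10 against REF (horizontal axis) of every tested gene of 8 coagulation and complement lists, 1 point per gene, spread vertically for legibility. Diamonds are the members, squares mark F3 and Vtn, the genes with an adjusted p below 0.05, and black lines are list medians, which lie between -0.38 and 0.10.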

How the data were processed

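The labels assign each dye of 8 two-colour arrays to 1 of 16 rats, 4 per diet, and each rat is on 1 array. The authors read the scans in Agilent Feature Extraction 10.7.3.1. The deposited files give raw median intensity values for spots and local backgrounds, used here, and processed intensity values, used in 1 alternative. A series table with 8 columns was left out because its columns match no label. Signals were processed in limma 3.58.1 (R 4.3.3) by the steps that the methods name: normexp (offset 50), spatial loess (span 0.4), intensity loess (span 0.3) and Aquantile. The offset and spans are not given in the sources used here. Outlier spots were left out, 604 to 896 per array, and 0 were saturated. Spots were averaged by probe, and the 22537 probes well above background in at least 4 of 16 rats gave 19899 genes, each by its brightest probe, 11921 of them with a RefSeq symbol (of 30367 probes, 18005 matched). Array number limits the precision.

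Diet and dye were fitted to the 16 log2 signals with the array as a block, and p-values were adjusted over all genes of each of 6 comparisons. The within-array correlation was 0.419 by duplicateCorrelation. intraspotCorrelation, planned first, gave 0.474 and was replaced because it came out too high when tested on simulated data. Rank product used 100 permutations. The labels do not say whether rats shared a cage or litter. The members and all gene lists were chosen with earlier results of these data known. The text names every member, pathway genes called against REF, the gene of each list with the smallest adjusted p in C10, and 3 genes most like Serpina10, F2 and Cd55. Cfd and the marker genes named were chosen after their values were seen. Alternatives covered offset, background, loess, scaling, filter, probe choice, dye, block, log ratios, threshold and each rat left out. The row of the slide and intraspotCorrelation were added after seeing the data.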

Additional observations from a re-analysis of the deposited data

How the results depend on the processing

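With 1 rat left out, the number of members called in C10 against REF ranged from 0 to 2, and in the other 5 comparisons it was 0 throughout. It was 0 with the array block left out, with log ratios within arrays and with a 2-fold limit, 2 with the row of the slide as a term (F2 and F3) and 4 by rank product, which against REF also took 1 member in CF and 1 in I, and 2 in C10 against I. For the other pathway genes in C10 it ranged from 0 to 4 with 1 rat left out, was 0 without between-array normalization, without the dye term, without the block, with log ratios, with the 2-fold limit and with the row of the slide, and was 2 by rank product (Cfb and Cfd) and 2 with intraspotCorrelation (F13a1 and Vtn). Members that changed sign had not been called. With log ratios these were Cd55 in CF (0.11), F2 in I (0.11) and Thbd in CF against I (0.0031). Without the block and by rank product they were Tfpi in I (-0.016), Cd55 in I (-0.10), Cd59b in C10 against CF (0.025) and Serpina10 in CF against I (0.13). Serpina10 in CF against I was 0.14 with offset 0 and 0.33 with processed signals, and Tfpi in I was -0.0062 with processed signals. With quantile normalization Tfpi in I was -0.0093 and Cd59b in C10 against CF 0.013, F2 in I was 0.095 with the row of the slide, and Thbd in CF against I was 0.023 without between-array normalization and 0.018 for the mean of its probes. The cause was not tested.

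With 1 rat left out, log2 fold changes that crossed zero ranged from -1.82 to 0.090 for Serpina10 in C10 against REF, -0.10 to 2.14 in C10 against CF, -0.039 to 1.82 in C10 against I and -0.58 to 0.14 in CF against I. They ranged from -0.59 to 0.14 (Cd55), -0.10 to 0.032 (Tfpi) and -0.032 to 0.21 (Thbd) in CF against REF, from -0.24 to 0.48 (Cd55), -0.45 to 0.062 (F2), -0.070 to 0.092 (Tfpi) and -0.024 to 0.10 (Cd59b) in I against REF, and from -0.10 to 0.070 for Cd59b in C10 against CF. In CF against I they ranged from -0.13 to 0.029 (F3), -0.11 to 0.066 (Thbd) and -0.094 to 0.069 (Tfpi). Slide and scan could not be fitted as a batch, since all arrays share 1 slide and 1 scan. The labels give rats of different diets no shared replicate number, and the pairs of rats on an array entered as the block or, in 1 alternative, as log ratios. Between C10 and CF, F2 ranged from -0.61 to -0.090 with 1 rat left out. Serpina10 was left out of the fit that needs all 16 rats well above background. Low signals near the offset limit the size of the Serpina10 differences.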

Other observations

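F3 and Thbd, both known from vessel walls and stroma, had a Pearson r of 0.61 and a Spearman rho of 0.30 over the 16 rats. Without C10 rats 1 and 3, the farthest from the F3 median, r was -0.06, so the value rested on these 2 rats, which were low in both genes and in the 6 fibroblast genes. The pair was picked after its values were seen. Tfpi and Cd55 had the lowest r of the 28 pairs, -0.47.

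Of 32 groups (8 members in 4 diets), 0 held a rat that stood apart by Dixon's 95 % limit for 4 values, and the closest was Cd59b in REF rat 3, whose gap to the nearest rat was 0.822 of the range.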
